A study of Sus scrofa with 6 samples.

Results

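Ubiquitin-conjugating enzymes, or E2s, are the middle step of the cascade that attaches ubiquitin to other proteins. The E2 genes of the pig 2-cell embryo were taken by name as the genes of the deposited table whose symbol starts with UBE2 and a further letter. This rule found 28 of 17678 genes, spread over 15 chromosomes, with 4 of them (UBE2J2, UBE2M, UBE2S and UBE2U) on chromosome 6. A total of 3575 genes in the table carry no symbol, and the rule cannot see an E2 among them.

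Poly(A) RNA was sequenced from porcine parthenotes, embryos that start from an activated egg and hold no paternal genome, at the 2-cell stage and 32 h after activation. Mature (MII) oocytes from slaughterhouse ovaries of crossbred pigs (Landrace × Yorkshire × Duroc) were injected before activation with negative control siRNA (NC) or with 3 siRNAs against SIN3A (SIN3A KD), the scaffold of a histone deacetylase complex. Each group had 3 replicates, each a pool of 20 embryos, so no value belongs to a single embryo. The comparison asked which E2 mRNAs differ in level after SIN3A knockdown.

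An E1 enzyme activates ubiquitin and passes it to a cysteine of the E2, and the E2 then works with an E3 ligase, which picks the target protein. The E2 often decides which kind of ubiquitin chain is built, and some E2s carry NEDD8 or ISG15 in place of ubiquitin. In eggs and cleaving embryos this machinery removes cyclins and maternal proteins. At the 2-cell stage most mRNA of the pig embryo was laid down in the oocyte.

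Most E2s hold a histidine, a proline and an asparagine shortly before the cysteine that carries ubiquitin. The codons of this stretch were searched in the RefSeq coding sequences (assembly Sscrofa11.1, on the coding strand of each gene): a histidine codon (CAT or CAC), a proline codon (CCN) or cysteine codon (TGT or TGC) and an asparagine codon (AAT or AAC), followed by a cysteine codon 10 or 11 codons after the histidine codon. They were found in 19 of the 28 E2 genes, with UBE2W left unsearched, and in 114 of 19548 annotated genes with a coding sequence (0.583%). The 2 searches differed. In E2 genes a match in any annotated transcript counted, while over all genes only the transcript with the longest coding sequence was searched. The second codon was proline in 18 E2 genes and cysteine in 1, UBE2E3. The stretches below are shown because they belong to the genes on which the results turn, and because they show how close paralogs are where reads have to be told apart. Capitals mark the histidine, second and asparagine codons and the cysteine codon.
UBE2H: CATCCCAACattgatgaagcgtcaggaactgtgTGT
UBE2K: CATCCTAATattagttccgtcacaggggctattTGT
UBE2E3: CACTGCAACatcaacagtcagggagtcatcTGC
UBE2D1: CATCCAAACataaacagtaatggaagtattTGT
UBE2D3: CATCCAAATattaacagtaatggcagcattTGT
UBE2A: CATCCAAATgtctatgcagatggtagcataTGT
UBE2B: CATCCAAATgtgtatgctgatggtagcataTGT
UBE2C: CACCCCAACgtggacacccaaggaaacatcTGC
UBE2S: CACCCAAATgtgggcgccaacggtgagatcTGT

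The stretches lie on Sscrofa11.1 in coding exons. Those of UBE2K (chr8:30938184-30938219), UBE2E3 (chr15:86559409-86559441), UBE2D3 (chr8:118224563-118224595) and UBE2C (chr17:48020548-48020580) are on the plus strand and unbroken. Those of UBE2D1 (chr14:92304813-92304845) and UBE2S (chr6:59567753-59567785) are on the minus strand and unbroken. An intron splits the stretch of UBE2H (chr18:18903954-18905338), UBE2A (chrX:98004917-98005915) and UBE2B (chr2:136661719-136664442), all on the plus strand, as it does in 7 of the 19 genes. UBE2H and UBE2K have 1 codon more between the asparagine and cysteine codons than the other genes shown. The letters were not found in the coding sequences of UBE2J1, UBE2J2, UBE2O, UBE2Q1, UBE2QL1, UBE2V1, UBE2V2 and UBE2Z. This says only that these codons at this spacing are not there. UBE2W was not searched, because its annotated coding sequence of 443 bases is not a whole number of codons.

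Over the aligned coding sequence UBE2A and UBE2B were 78.2% identical, with a longest identical stretch of 19 bases. UBE2D1 and UBE2D3 were 78.6% identical, with a longest identical stretch of 14 bases. UBE2V1 and UBE2V2 were 84.0% identical, with a longest identical stretch of 29 bases. A row without a symbol that the reference names UBE2D2 was 88.2% identical to UBE2D3, with 56 identical bases in a run, and its active-site stretch is the same as that of UBE2D3. How the quantifier shared reads within such pairs is not known from the table, so values of close paralogs are uncertain to that extent.

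The deposited values are gene abundances scaled between libraries, and they sum to between 11084950 and 11500709 per library. From the spacing of the low values the NC libraries were put at about 7776132 to 13016616 reads and the SIN3A KD libraries at about 10243262 to 15738438, so a value of 1 stood for roughly 1 read. SIN3A itself had 8.22% of its NC mean left in SIN3A KD, with a log2 fold change of -3.81 (SE 0.31) and an adjusted p of 8.45e-06 by limma, although without a variance trend across genes the adjusted p was 0.423. Of 12 oocyte and early embryo markers 9 were found (NLRP5, DPPA3 and DAZL were not found by name), and their summed value was 67747 to 75054 in NC and 67027 to 82328 in SIN3A KD. Of 12 cumulus and granulosa cell markers 10 were found (FSHR and HAS2 were not), and their summed value was 41.0 to 44.8 in NC and 32.2 to 71.1 in SIN3A KD, with 0 of the 10 at 0 in all libraries. GFP and RFP spike-in RNA was added before extraction per the labels but is not used here, so a change in total mRNA per embryo cannot be seen. In pooled embryos fewer cells and less RNA per cell cannot be told apart, and after selection on oligo(dT) less mRNA and shorter poly(A) tails cannot be told apart either.

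No E2 gene differed between the groups after adjustment. Across the 11986 genes with a mean value of at least 10, limma on log2(value + 1) with Benjamini-Hochberg adjustment called 0 of the 26 E2 genes tested at an adjusted p below 0.05, against 0.159% of all genes tested. With an absolute log2 fold change above 0.8 required as well, the count was 0 of 26 against 0.125%. Before adjustment 4 E2 genes (UBE2H, UBE2E3, UBE2D1 and UBE2K) had a p below 0.05, all with lower values in SIN3A KD, against 2.38% of all genes with such a p and lower values. The lowest adjusted p of an E2 gene was 0.437, for UBE2H. All fold changes are on the log2(value + 1) scale, which understates differences of low genes.

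The E2 genes leaned toward lower values as a family, by a small amount. The fitted log2 fold change was below 0 in 20 of the 26 genes tested, against 49.4% of all genes, and above 0 in UBE2S, UBE2L3, UBE2M, UBE2O, UBE2J1 and UBE2L6. The median was -0.098 over the E2 genes and 0.0026 over all genes tested. In 6 E2 genes (UBE2A, UBE2B, UBE2D1, UBE2E3, UBE2J2 and UBE2K) every SIN3A KD library was below every NC library, against 4.94% of all genes. In 0 E2 genes was every SIN3A KD library above every NC library, against 4.85% of all genes. These counts describe the list and were not tested.

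By role, the log2 fold change was below 0 in all 5 Rad6-type and DNA damage E2s (median -0.17). It was below 0 in 4 of 5 tested E2s listed as broad or chain-starting (median -0.18). It was below 0 in 5 of 6 E2s of endoplasmic-reticulum-associated degradation and K48 chains (median -0.088) and in 3 of 4 tested large or atypical E2s (median -0.089). UBE2H, with a coding sequence of 606 bases, was counted in this last list and had the lowest log2 fold change in it (-0.42). The E2s of the anaphase-promoting complex had 1 of 2 below 0 and those of ubiquitin-like proteins 2 of 4. The genes whose groups did not overlap came 2 each from the first 3 of these roles.

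The lean was present in each SIN3A KD library. The median E2 gene stood at -0.095, -0.083 and -0.12 relative to the NC mean on the log2 scale in SIN3A KD replicates 1, 2 and 3. In NC replicates 1, 2 and 3 it stood at -0.015, 0.0080 and -0.018. Each gene was set against its own NC mean, so the NC medians lie near 0 by construction and are no contrast. Over all genes the median taken in this way was between -0.0003 and 0.012 in every library. SIN3A KD replicates 1, 2 and 3 held the lowest value of 6, 7 and 8 of the tested E2 genes, while NC replicates 1, 2 and 3 held that of 2, 1 and 2. The highest value lay in NC replicates 1, 2 and 3 for 7, 6 and 4 genes, and in each SIN3A KD replicate for 3. Such counts were not made over all genes. The summed deposited values of the E2 genes made up 0.526% to 0.575% of an NC library and 0.496% to 0.505% of a SIN3A KD library. UBE2D3 and UBE2H contributed 29.2% and 16.3% of that sum in NC. The sum was 58314 to 65364 in NC and 56573 to 57042 in SIN3A KD. UBE2H, whose groups overlapped, had a mean of 10110 in NC and 7548 in SIN3A KD, so this gene alone weighs heavily on the lower sum.

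**Figure D1:**
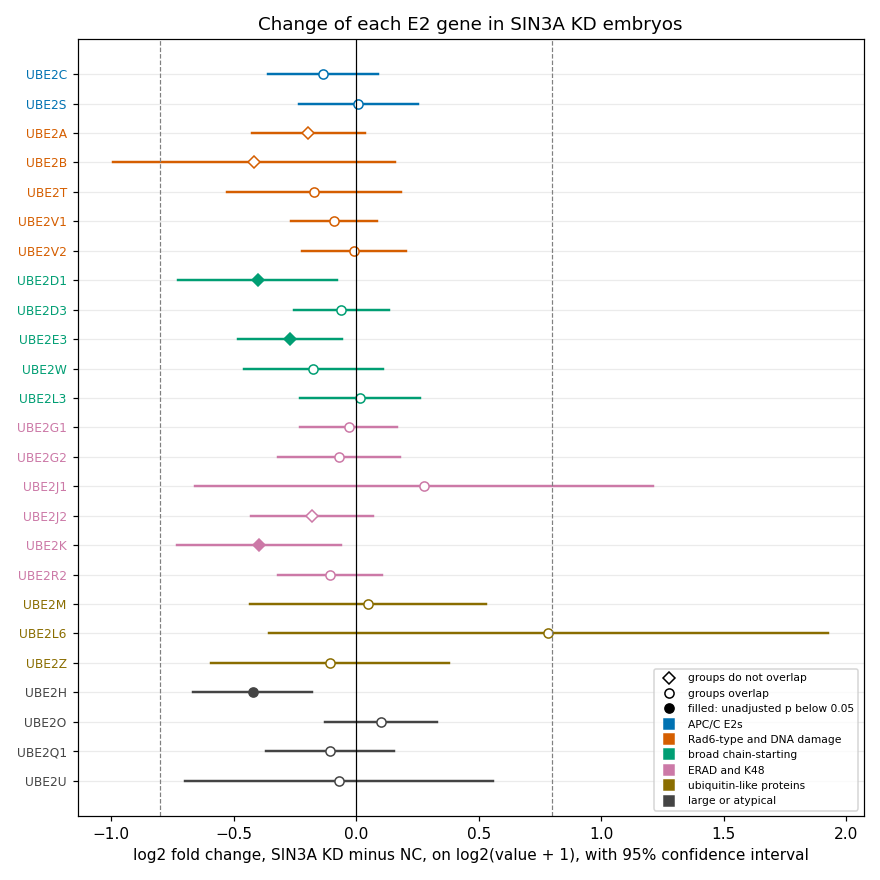
Log2 fold change (SIN3A KD minus NC, horizontal axis, log2 of value + 1) of 25 of the tested E2 genes, with 95% confidence intervals from limma on 3 libraries per group, coloured by role, with filled points for an unadjusted p below 0.05, diamonds for groups that did not overlap and dashed lines at -0.8 and 0.8. The points run from -0.42 to 0.78, and 19 of the 25 lie below 0.

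The intervals were narrow for most of the family. For 23 of the 26 genes the 95% confidence interval lay within -0.8 to 0.8, against 70.8% of all genes tested. The exceptions were UBE2B, UBE2J1 and UBE2L6, which had mean NC values of 63.8, 20.4 and 10.5. The coefficient of variation among the NC libraries had a median of 7.66% over the E2 genes and 13.1% over all genes tested. It ran from 1.36% to 59.2% and was under 10% in 15 E2 genes. The median NC value was 826 over the E2 genes tested and 185 over all genes tested. Intervals and variation were not compared at equal level, so they are not read as a trait of the family.

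UBE2H, an E2 that works with the CTLH ligase complex, had the lowest unadjusted p of the family. Its values were 10922, 10929 and 8478 in NC and 6909, 6833 and 8904 in SIN3A KD. The groups overlapped, since SIN3A KD replicate 3 was above NC replicate 3. The mean ± SD of 3 libraries was 7548 ± 1174 in SIN3A KD, which is 74.7% of the NC mean of 10110 ± 1413. The log2 fold change was -0.42 (SE 0.11, 95% interval -0.66 to -0.18) with an unadjusted p of 0.0019 and an adjusted p of 0.437 by limma. Over the processing alternatives the adjusted p ran from 0.0736, without SIN3A KD replicate 3, to 1.0. The gene (ENSSSCG00000016564) lies on Sscrofa11.1 at chr18:18819612-18932909, plus strand.

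Subunits of the CTLH complex were among the E3 partners listed, and none had an unadjusted p below 0.05. MAEA, a RING subunit of the complex, had a log2 fold change of -0.040 (SE 0.11), and RANBP9, a scaffold subunit, one of -0.070 (SE 0.082). RMND5A, the RING partner of MAEA, had values of 3469, 3464 and 3483 in NC and of 3809, 3658 and 3824 in SIN3A KD. Every SIN3A KD library was above every NC library for RMND5A, with a log2 fold change of 0.12 (SE 0.081) and an adjusted p of 0.997 by limma.

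UBE2K, which builds K48-linked chains that lead to the proteasome, was lower in every SIN3A KD library. Its values were 294, 236 and 219 in NC and 179, 179 and 207 in SIN3A KD. The highest SIN3A KD library was only just below the lowest NC library. The log2 fold change was -0.40 (SE 0.16, 95% interval -0.73 to -0.064), with an unadjusted p of 0.0224 and an adjusted p of 0.997 by limma, and an exact two-sided permutation test gave p = 0.1, the smallest that 3 against 3 allows. The gene (ENSSSCG00000033602) lies at chr8:30887784-30961685, plus strand.

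The other E2s of endoplasmic-reticulum-associated degradation and K48 chains were UBE2G1, UBE2G2, UBE2J1, UBE2J2 and UBE2R2. UBE2J2, an E2 anchored in the membrane of the endoplasmic reticulum, had values of 578, 617 and 604 in NC and of 565, 564 and 463 in SIN3A KD. Its groups did not overlap, by a margin of a few percent of the value. For UBE2J2 the log2 fold change was -0.18 (SE 0.12, 95% interval -0.43 to 0.069), and without SIN3A KD replicate 3 it was -0.085. UBE2G2, which acts in the removal of misfolded proteins, had a log2 fold change of -0.070, and UBE2G1, which extends K48 chains, one of -0.031. UBE2R2, a paralog of CDC34 that works with cullin-RING ligases, had one of -0.11. UBE2J1 was near the limit of the filter, with values of 17.3, 10.2 and 33.7 in NC and 19.8, 20.0 and 27.9 in SIN3A KD, and its NC libraries enclosed all 3 SIN3A KD libraries.

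Among the E2s listed as broad or chain-starting, UBE2D1 and UBE2E3 had unadjusted p values below 0.05 by limma and UBE2D3, UBE2L3 and UBE2W did not. UBE2D1 had values of 228, 231 and 225 in NC and of 198, 157 and 164 in SIN3A KD. The NC libraries lay within a few percent of each other and all SIN3A KD libraries were below them. For UBE2D1 the log2 fold change was -0.40 (SE 0.15, 95% interval -0.73 to -0.079), with an unadjusted p of 0.0178 and an adjusted p of 0.956 by limma. The gene (ENSSSCG00000033323) lies at chr14:92296314-92330432, minus strand.

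UBE2E3 had values of 978, 1091 and 1127 in NC and of 872, 874 and 898 in SIN3A KD. The SIN3A KD libraries were close together and below each NC library, at 82.7% of the NC mean. The log2 fold change was -0.27 (SE 0.10, 95% interval -0.48 to -0.058), with an unadjusted p of 0.0157 and an adjusted p of 0.922 by limma. The gene (ENSSSCG00000033987) lies at chr15:86470912-86562297, plus strand.

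UBE2D3, a close relative of UBE2D1 that serves many RING ligases, had values of 20512, 17278 and 16583 in NC and of 17715, 17975 and 16271 in SIN3A KD. The groups overlapped widely, with a log2 fold change of -0.061 (SE 0.091, 95% interval -0.25 to 0.13). UBE2W, which attaches ubiquitin to the amino end of proteins, had values of 1841, 2232 and 1776 in NC and of 1803, 1350 and 2082 in SIN3A KD. The groups overlapped, and the spread within SIN3A KD was wider than the difference of -0.18 (SE 0.13), which was -0.0018 without SIN3A KD replicate 2. UBE2L3, which serves HECT and RBR ligases, had a log2 fold change of 0.014 (SE 0.12). UBE2D4 had values of 4.29, 0 and 0 in NC and of 0, 1.5 and 8.13 in SIN3A KD and was below the filter, so it was not tested.

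**Figure D2:**
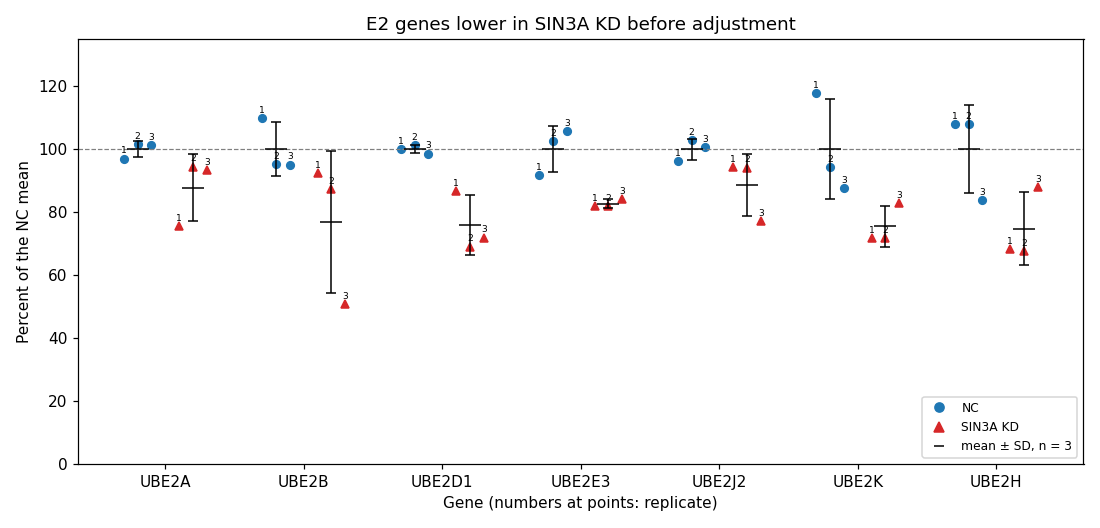
Values of the 7 E2 genes with an unadjusted p below 0.05 or with groups that did not overlap, as percent of the NC mean (vertical axis, from 0), for each library (circles NC, triangles SIN3A KD, numbered by replicate) with mean ± SD (n = 3). The SIN3A KD triangles lie below all NC circles in each gene but UBE2H, where replicate 3 lies above the lowest NC circle.

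UBE2A and UBE2B are the mammalian forms of yeast Rad6, which mark histone H2B with the ligases RNF20 and RNF40 and PCNA with RAD18. UBE2A had values of 997, 1046 and 1041 in NC and of 777, 971 and 958 in SIN3A KD, and UBE2B had values of 70.0, 60.7 and 60.7 in NC and of 58.9, 55.6 and 32.4 in SIN3A KD. Neither gene's groups overlapped, and in each a single library (SIN3A KD replicate 1 for UBE2A, replicate 3 for UBE2B) was far below the others. The log2 fold change was -0.20 (SE 0.11, 95% interval -0.43 to 0.035) for UBE2A and -0.42 (SE 0.27, 95% interval -0.99 to 0.16) for UBE2B. Without SIN3A KD replicate 3 the value of UBE2B was -0.15, and without SIN3A KD replicate 1 that of UBE2A was -0.091. Exact two-sided permutation tests gave p = 0.1 for each. RNF20, RNF40 and RAD18 had log2 fold changes of 0.059, -0.015 and 0.030. UBE2A (ENSSSCG00000012621) lies at chrX:97925136-98007551 and UBE2B (ENSSSCG00000038953) at chr2:136652764-136667213, both on the plus strand.

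UBE2V1 and UBE2V2 have no active cysteine and act with UBE2N in K63-linked chains. UBE2V1 had values of 6076, 5322 and 5491 in NC and of 5325, 5301 and 5221 in SIN3A KD, and UBE2V2 had values of 2059, 1831 and 1688 in NC and of 1772, 1744 and 2016 in SIN3A KD. Only the highest SIN3A KD library of UBE2V1 reached into the NC range, while the groups of UBE2V2 overlapped widely. Their log2 fold changes were -0.089 (SE 0.083) and -0.010 (SE 0.10). UBE2T, the E2 of the Fanconi anemia pathway, had one of -0.17 (SE 0.17), and its ligase FANCL one of -0.037 (SE 0.11). UBE2N was not found by name.

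UBE2C and UBE2S serve the anaphase-promoting complex (APC/C), which targets cyclin B for destruction, UBE2C by starting chains and UBE2S by extending them. UBE2C had values of 1020, 1137 and 1258 in NC and of 979, 1116 and 1006 in SIN3A KD. UBE2S had values of 2545, 3140 and 2779 in NC and of 3398, 2720 and 2443 in SIN3A KD. The groups overlapped in both genes, and for UBE2S the highest and the lowest library were both SIN3A KD. The log2 fold change was -0.14 (SE 0.11, 95% interval -0.36 to 0.090) for UBE2C and 0.0080 (SE 0.12, 95% interval -0.24 to 0.25) for UBE2S. The APC/C activators CDC20 and FZR1 had log2 fold changes of 0.11 (SE 0.11) and 0.071 (SE 0.11). UBE2C (ENSSSCG00000007423) lies at chr17:48018403-48021542 on the plus strand and UBE2S (ENSSSCG00000035344) at chr6:59565001-59570484 on the minus strand.

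The E2s of ubiquitin-like proteins had a median log2 fold change of -0.011 over 4 genes. UBE2M, an E2 of NEDD8, had a log2 fold change of 0.048 (SE 0.23), and UBE2Z, which is charged by the E1 enzyme UBA6, one of -0.11 (SE 0.23). UBE2L6, the E2 of ISG15, had the highest fold change of the family, 0.78 (95% interval -0.36 to 1.92), from values of 4.18, 14.7 and 12.7 in NC and 25.3, 12.3 and 15.3 in SIN3A KD. These were near the filter and overlapped, with NC replicate 1 low and SIN3A KD replicate 1 high. The UBE2L6 value was 0.28 without NC replicate 1, 0.50 without SIN3A KD replicate 1 and 0.44 with a pseudocount of 10.

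Of the large or atypical E2s other than UBE2H, UBE2O, which also acts as its own ligase, had a log2 fold change of 0.10 (SE 0.11). UBE2Q1 had one of -0.11 (SE 0.12). UBE2U had values of 69.4, 81.0 and 36.2 in NC and of 45.8, 66.8 and 57.5 in SIN3A KD, which overlapped. UBE2QL1 had values of 6.25, 10.2 and 6.86 in NC and of 8.75, 5.02 and 12.1 in SIN3A KD and was below the filter.

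**Figure D3:**
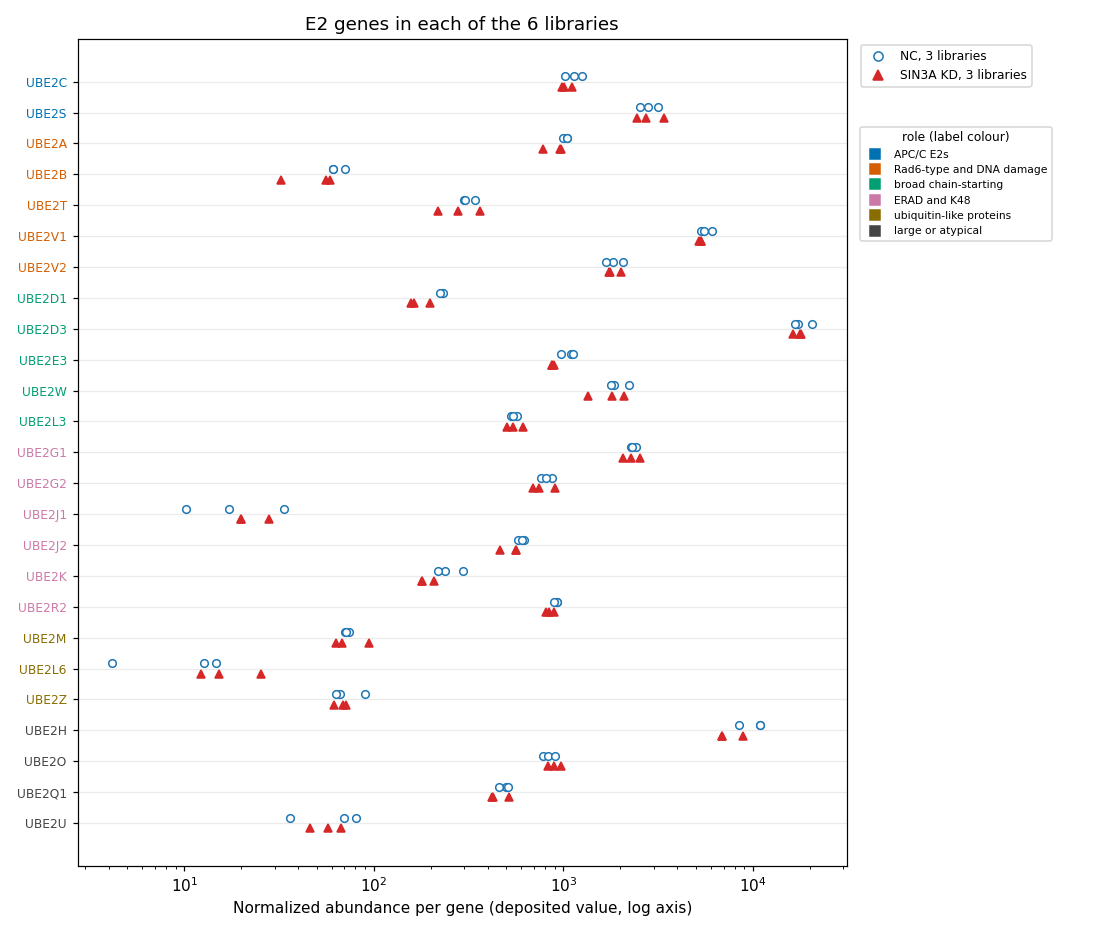
Deposited normalized abundance per gene (horizontal log axis) of 25 of the tested E2 genes, ordered by role, in the 3 NC libraries (open circles) and the 3 SIN3A KD libraries (triangles). Values can be compared within a gene and not between genes, because gene length is not taken out, and the groups overlap in 19 of the 25 genes.

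Within NC embryos the E2 genes covered a wide range of levels. Per kilobase of the longest RefSeq mRNA, UBE2D3 had the highest NC level at 44097 ± 5102 (SD, n = 3). Its RefSeq mRNA holds the coding sequence alone, at 411 bases, so this level is overstated, as are those of UBE2J1 and UBE2L6, whose mRNAs are also coding-only. Next on this per-kilobase scale came UBE2V1 at 2622 ± 184, UBE2S at 2046 ± 217, UBE2W at 1530 ± 194 and UBE2V2 at 1501 ± 151. On the same scale the lowest of the tested genes was UBE2U at a level of 10.4 per kilobase. With the median mRNA or the coding sequence as the length, UBE2J1 was lowest at 21.3, while UBE2U stood at 28.3 and 68.4. UBE2H, with a long annotated mRNA of 7849 bases, had a per-kilobase level of 1288 ± 180. UBE2A was at a level of 541 ± 14.1 per kilobase and UBE2B at 37.4 ± 3.17. UBE2D3 was first in the order with the longest mRNA, the median mRNA and the coding sequence as the length. Its length is 411 bases in each case, so its own level could not change and its overstatement was not checked. Of the 5 highest genes only 3 remained with the median mRNA and 2 with the coding sequence.

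The order had 25 pairs of neighbours, and in 14 of them the NC libraries of the higher gene were all above those of the next. In the other 11 the NC ranges of the neighbours overlapped, so their order was not resolved. These included UBE2W with UBE2V2, UBE2V2 with UBE2C, UBE2C with UBE2H, UBE2E3 with UBE2G1, UBE2T with UBE2Q1, UBE2R2 with UBE2L3 and UBE2D1 with UBE2K. At the low end UBE2Z overlapped with UBE2L6, UBE2L6 with UBE2J1 and UBE2J1 with UBE2U. Among the 13208 genes with a RefSeq mRNA length, 11 E2 genes were in the top 10% by per-kilobase NC level.

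**Figure D4:**
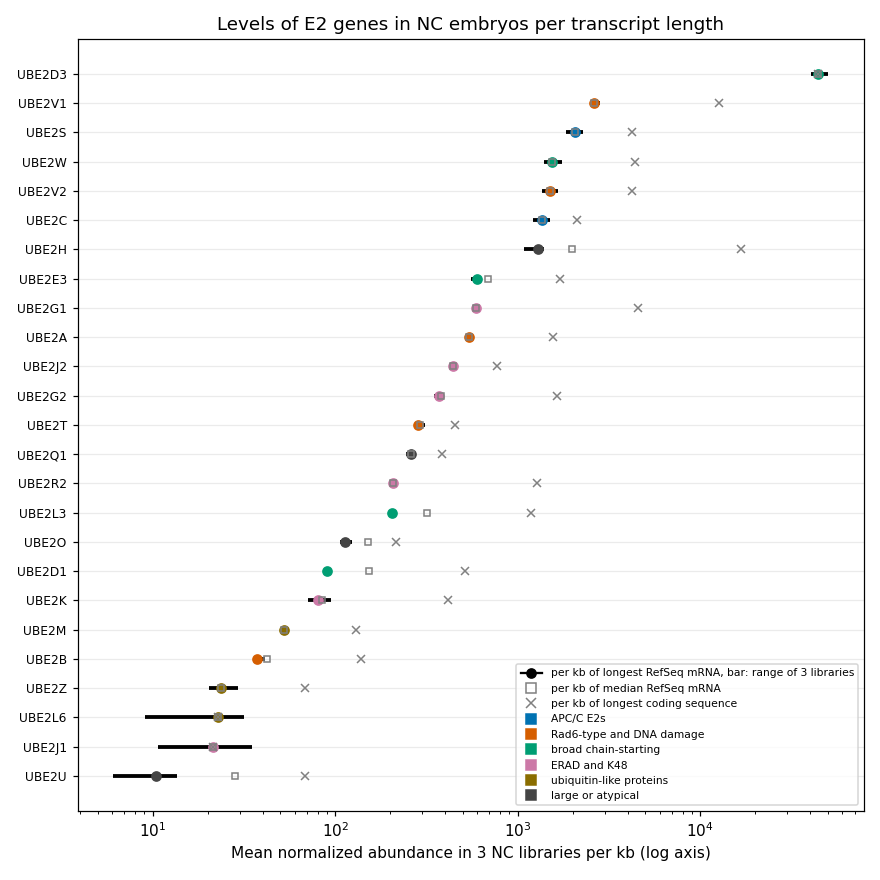
Mean NC level per kilobase (horizontal log axis) of 25 of the tested E2 genes, with circles for the longest RefSeq mRNA as length (coloured by role, bars from the lowest to the highest of the 3 NC libraries), squares for the median mRNA and crosses for the coding sequence. The circles run from UBE2D3 at the top to UBE2U at the bottom, and the choice of length moves many genes further than the libraries differ.

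The balance between related E2s was compared as the log2 ratio of the pair within each library, each gene taken as value + 1. Of 14 pairs listed, 11 could be computed, and in 0 of the 11 did the groups separate. The exact two-sided permutation p values ran from 0.2 to 0.9, and every p adjusted over the 11 pairs was at least 0.733, in a design where 0.1 is the smallest p possible. The UBE2D1 to UBE2D3 log2 ratio was -6.48, -6.22 and -6.20 in NC and -6.48, -6.83 and -6.62 in SIN3A KD, with SIN3A KD replicate 1 within the NC range. The UBE2A to UBE2B log2 ratio was 3.81, 4.09 and 4.08 in NC and 3.70, 4.10 and 4.84 in SIN3A KD, where the libraries on both sides of the NC range were SIN3A KD. The UBE2R2 to CDC34 log2 ratio had a mean ± SD (n = 3) of -1.68 ± 0.25 for NC against -1.89 ± 0.073 for SIN3A KD.

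The rest of the conjugation pathway was described from 4 lists with 93 genes, of which 86 were found and 80 tested. By limma 0 of the 80 were called in either direction, and 2, DCUN1D1 and TRAF6, had an unadjusted p below 0.05, a smaller share than the 4.61% of all genes tested. The median log2 fold change was -0.089 over 8 E1 enzymes, 6 of them below 0, and 0.054 over 6 proteins with an E2 fold outside the UBE2 names, 1 of them below 0. It was 0.038 over 9 ubiquitin and ubiquitin-like modifiers, 4 of them below 0, and 0.0084 over 57 E3 partners, 25 of them below 0. Adjusted p values in these lists were at least 0.997.

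UBA6, an E1 enzyme of ubiquitin and FAT10, had values of 210, 199 and 255 in NC and of 197, 144 and 224 in SIN3A KD, which overlapped. UBA1, the main E1 of ubiquitin, had values of 3186, 3227 and 2869 in NC and of 3716, 3730 and 2824 in SIN3A KD, where replicates 1 and 2 were above all NC libraries and replicate 3 below them. CDC34, the paralog of UBE2R2, had a log2 fold change of 0.097 (SE 0.11).

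DCUN1D1, which helps UBE2M place NEDD8 on cullins, had values of 1782, 1454 and 1512 in NC and of 1353, 1085 and 1534 in SIN3A KD. Replicate 3 of SIN3A KD lay within the NC range, with a log2 fold change of -0.27 (SE 0.12) and an unadjusted p of 0.045 by limma. TRAF6, a ligase that builds K63 chains with UBE2N, had values of 203, 117 and 167 in NC and of 216, 196 and 218 in SIN3A KD. NC replicate 1 was above the lowest SIN3A KD library, with a log2 fold change of 0.40 (SE 0.19) and an unadjusted p of 0.0488 by limma. Of the 57 E3 partners tested, 1 (SHPRH) had every SIN3A KD library below every NC library, against 4.94% of all genes, and 3 (DCUN1D3, RMND5A and UBE3A) had every one above, against 4.85%. Such shares are near or below those over all genes.

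**Figure D5:**
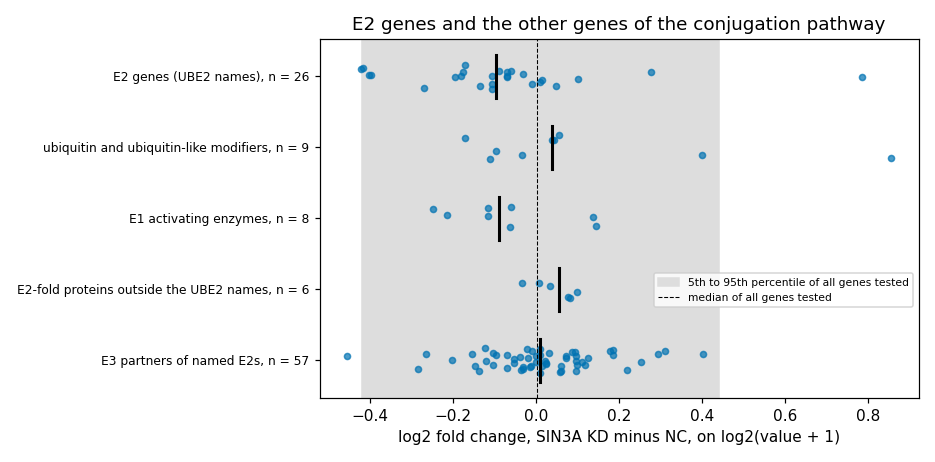
Log2 fold change (SIN3A KD minus NC, horizontal axis) of each tested gene (points) and list median (bars) for the E2 genes and the 4 other pathway lists, with the band from the 5th to the 95th percentile of all genes tested. The bar of the E2 genes lies at -0.098 and that of the E1 enzymes at -0.089, left of the median of all genes, and the other bars lie to the right of it.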

How the data were processed

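Total RNA from 3 NC and 3 SIN3A KD pools was selected on oligo(dT) and sequenced. Per the submitters' processing notes the tools were Salmon 0.14.1 and DESeq2 with Sscrofa11.1. The deposited table holds 1 normalized abundance per gene and library, treated here as a signal that the authors had scaled between libraries. It holds no raw counts: between 55.2% and 70.4% of values under 12 were whole multiples of a library's step (tolerance 0.05), so no count test was run. The study describes its 3 replicates as independent, but the labels do not say how embryos were collected for each, and p-values measure the spread between these libraries. No per-sample columns were left out.

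Values were taken as log2(value + 1), genes with a mean under 10 were dropped, and group differences were fitted with limma 3.58.1 (R 4.3.3, eBayes with a variance trend) across all genes left, with Benjamini-Hochberg adjustment. The fit was tested on simulated data. The unadjusted and adjusted p of single genes came from limma. Exact permutation over libraries gave the p of the pairs, and that of single genes only where a permutation test is named. Other software was Python 3.11.15, numpy 2.4.6, pandas 2.3.3, scipy 1.17.1 and statsmodels 0.14.6. Coding sequences were read with Biopython 1.88 and figures drawn with matplotlib 3.10.9. Gene positions, mRNA lengths and coding sequences are from the RefSeq annotation of Sscrofa11.1, and the length of a gene was that of its longest mRNA.

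The fit was repeated with a pseudocount of 0.1 or 10, without the filter or with a minimum mean of 100, after quantile normalization or a rescaling of the TMM kind, without the variance trend, with a block for the replicate number and without each library, and levels were repeated with the median mRNA as length. The coding sequence as length and the rows named as E2 only by the reference were added after the data were seen. The members and lists were chosen with earlier results of these data known. Values in all libraries were given for E2 genes with an unadjusted p below 0.05, for those whose groups did not overlap, for the 5 highest and the lowest per kilobase, and for UBE2A, UBE2B, UBE2C, UBE2S and UBE2D3, and for pathway genes of low unadjusted p; those of UBE2J1, UBE2L6, UBE2D4, UBE2QL1, RMND5A and UBA1 are shown in addition. 1 member and 1 pathway gene are not reported here by name but are counted in the totals. UBE2F and UBE2N were not found by name. UBE2R1 is another name of CDC34, which was found as CDC34 and is described among the E2-fold proteins outside the UBE2 names.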

Additional observations from a re-analysis of the deposited data

How the results depend on the processing

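The count of E2 genes past an adjusted p of 0.05 was 0 in all 15 alternatives, and that of the other pathway genes 0 in all 14. Between 17 and 21 E2 genes had a log2 fold change below 0 (17 of 20 tested at a mean of at least 100). The SIN3A log2 fold change ran from -4.20 to -3.22 with a library left out, and without a variance trend it was -3.81 with an adjusted p of 0.423. The median E2 log2 fold change ran from -0.11 to -0.079 with a library left out (-0.079 without SIN3A KD replicate 3) and was -0.070 with the rows named by the reference included. Of the 5 highest levels per kilobase, 3 were kept with the median mRNA and 2 with the coding sequence as length. With a library left out, 1 to 3 of the 11 paralog pairs had groups that did not overlap, against 0 with all libraries. Groups with fewer libraries separate more easily, so this count is not read as a change in balance. Of 358 comparisons of single E2 genes with an alternative, 339 kept the sign and 19, in 11 genes, did not. With a library left out the log2 fold change ran from -0.12 to 0.11 for UBE2S (-0.0034 under quantile normalization), -0.12 to 0.032 for UBE2D3, -0.41 to 0.16 for UBE2U, -0.077 to 0.066 for UBE2V2, -0.11 to 0.70 for UBE2J1, -0.061 to 0.079 for UBE2L3, -0.21 to 0.050 for UBE2Z, -0.11 to 0.038 for UBE2G1, -0.18 to 0.0092 for UBE2G2, -0.13 to 0.16 for UBE2M and -0.36 to 0.010 for UBE2T. Among genes that kept their sign, the range with a library left out was -0.31 to -0.0018 for UBE2W, -0.23 to -0.085 for UBE2J2, -0.25 to -0.091 for UBE2A, -0.57 to -0.15 for UBE2B, -0.21 to -0.061 for UBE2C, -0.13 to -0.033 for UBE2V1, -0.20 to -0.059 for UBE2Q1, -0.15 to -0.070 for UBE2R2, 0.041 to 0.16 for UBE2O and 0.28 to 1.08 for UBE2L6. The cause was not tested.

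Libraries of equal number were checked for pairing. Their deviations from the group means correlated at 0.109, 0.111 and 0.087 across genes, and all 6 libraries correlated best with their own number in the other group. These correlations were low but do not exclude a pairing, and the labels state none. The main fit had no block, and the fit with one is given beside it. With the replicate block, 0 E2 genes and 26 of all genes were called, against 19 without it, and the adjusted p of UBE2H was 0.174. Over all genes the calls were 11 to 19 with a library left out, 14 under quantile normalization and 0 without a variance trend (622 at an unadjusted p below 0.05). With 3 libraries per group, a log2 difference of an E2 gene smaller than its interval was not detectable.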

Other observations

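Genes without a symbol in the table that the reference names as E2s were not counted as members. UBE2D2 (ENSSSCG00000036711) had 659 ± 119 across the 3 NC libraries (mean ± SD) and 633 ± 80.5 across the 3 SIN3A KD libraries, and UBE2E1 (ENSSSCG00000026488) had 1096 ± 128 and 1042 ± 4.31. UBE2NL (ENSSSCG00000000908) had 409 ± 66.1 and 416 ± 51.8. The log2 fold changes of UBE2D2, UBE2E1, UBE2E2 (ENSSSCG00000031392) and UBE2NL were -0.049, -0.067, 0.24 and 0.031, each with an adjusted p of 0.997 by limma.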
